A study of Schizosaccharomyces pombe with 13 samples.

Results

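The genes described here are those whose description in the authors' sense table mentions meiosis, sporulation or the spore wall. The words alone picked 54 of the 5747 sense entries. Leaving out 10 genes named in the rule for the set (mei4, ssm4, rec8, mei3, spo5, crs1, mei2, num1, rec10 and mes1), some of which do not carry the words, gave 46 genes. Of these, 34 are described by meiosis and 12 by sporulation or the spore wall. In addition, 10 of the 46 have a row in the authors' antisense table, which holds 1561 rows. Meiotically upregulated genes whose description lacks these words are not members, so the set is a sample of the meiotic genes and not a catalogue of them.

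RNA came from haploid fission yeast, Schizosaccharomyces pombe, in which all strains share the ED668 background and the alleles ade6-M216, ura4-D18 and leu1-32. The 13 libraries were 4 of wild type (h+), 3 of an xap5 deletion (KanMx4 in its place, h+, the Bioneer strain BG4186), 3 of a pht1 deletion (NatMx4 in its place, h−) and 3 of the double deletion (h−). Cells were pre-grown at 30 °C in the rich medium YES, shifted to 37 °C in the minimal medium EMM50 and taken in exponential growth. H2A.Z, a variant of histone H2A, is the product of pht1, xap5 encodes a conserved chromatin-associated protein, and the series asks whether the pair restrains aberrant transcripts. Each deletion strain was set against the same wild type, so the 3 comparisons share their controls. The mating type of the pht1 and double deletion strains differs from that of wild type by the labels, and its part in their folds and that of the deletions cannot be told apart.

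In fission yeast, meiosis follows starvation and mating. The transcription factor Ste11 starts the programme, and the forkhead factor Mei4 then drives the middle genes through FLEX elements with the core GTAAACA. Recombination proteins make and repair double-strand breaks, a forespore membrane grows from the modified spindle pole bodies around each haploid nucleus, and a spore wall of glucan and chitosan is laid down inside it. A dividing haploid culture does not pass through these steps, and many of the transcripts are kept low in such cells.

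Letters upstream of the genes were read first, because a shared control sequence was the feature of the set that its rule did not use. Windows ran from 250 bases before to 50 bases after the annotated transcript start, in the RefSeq genome of assembly ASM294v3, and both strands were searched. The Mei4 core GTAAACA stood in the windows of 20 of the 46 genes (43.5%), and in 844 of all 5112 windows (16.5%). The related core GTAAATA stood in 10 (21.7%), against 16.2% of all windows. A match is a string of letters and not a measured binding site.

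The promoters of moa1 and gas4 are shown because both hold the core, lie clear of other annotated genes and belong to genes that moved in opposite directions in the xap5 deletion. They are the 250 bases before the annotated start, on the strand of the gene, with the core or its reverse complement in capitals. The moa1 promoter is chrI:3729035-3729284 (minus strand) and the gas4 promoter is chrII:4205997-4206246 (plus strand).
moa1: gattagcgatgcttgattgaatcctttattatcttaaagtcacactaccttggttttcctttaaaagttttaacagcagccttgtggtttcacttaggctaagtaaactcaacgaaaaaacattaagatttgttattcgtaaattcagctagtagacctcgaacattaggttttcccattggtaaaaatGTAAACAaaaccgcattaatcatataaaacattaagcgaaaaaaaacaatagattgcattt
gas4: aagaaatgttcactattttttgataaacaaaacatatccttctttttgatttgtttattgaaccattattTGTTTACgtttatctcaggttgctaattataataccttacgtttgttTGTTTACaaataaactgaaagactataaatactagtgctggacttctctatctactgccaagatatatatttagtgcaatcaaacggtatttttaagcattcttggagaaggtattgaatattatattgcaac

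Shorter stretches, the core with 10 bases on each side, show a site of each of 3 further genes that results below turn on. The site of mug97 (chrII:1021533-1021539, minus strand) matches on the opposite strand. The printed sites of rec24 (chrI:4997188-4997194, minus strand) and mpf1 (chrI:2259769-2259775, plus strand) match on the strand of the gene. Each of these genes holds a further site that is not printed. That of rec24 (chrI:4997264-4997270) matches on the strand of the gene and that of mpf1 (chrI:2259753-2259759) on the opposite strand.
mug97: agcatttattTGTTTACaaataaattg
rec24: gaagacaataGTAAACAaatactcata
mpf1: cttaaaaagtGTAAACAaaagttccaa

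The 20 genes held 30 such sites in all, and the number per gene ran from 1 to 3, with 3 in meu14. Members are grouped here by role lists chosen for this report, and then by mug or meu symbols. Among the mug and meu genes, 9 of 14 held the core, as did 3 of 9 recombination genes, 2 of 6 forespore membrane genes, 2 of 3 spore wall genes and moa1 of the 2 segregation genes. Of the remaining 12 genes, 3 held it. Neither rec15, min8, ste7 nor atg101, which had the highest folds of the set in the double deletion, held GTAAACA in the window.

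**Figure D1:**
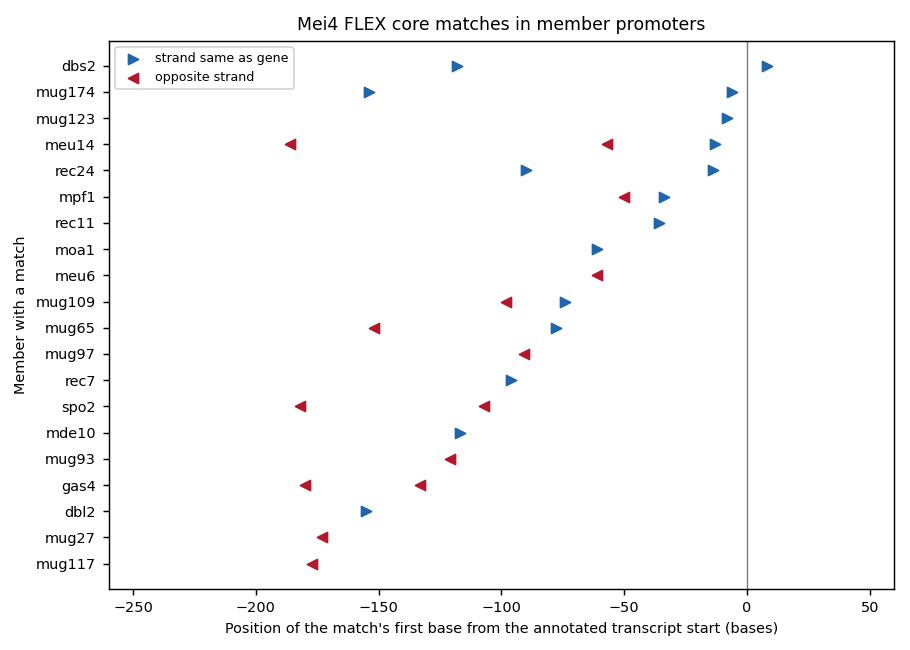
Positions of GTAAACA matches around the annotated transcript start (x axis, bases, 0 is the start) in the 20 genes that hold one (y axis), with right-pointing triangles for matches on the strand of the gene and left-pointing ones for the opposite strand. Of the 30 sites, only 1, in dbs2 at position 8, lies after the start.

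Ste11 boxes were rarer. The full box, the core TTCTTTG followed by TTC or TTT, stood in 2 windows (4.35%, against 1.39% of all), those of ste7 and mmc1, and the core alone in 5 (10.9%, against 9.94%). No Ste11 core overlapped a Mei4 core. These sites are shown, with the core in capitals, because both genes were called higher in the xap5 and double deletions. The cores lie at chrI:453646-453652 (minus strand) for ste7 and chrI:1795925-1795931 (plus strand) for mmc1.
ste7: attgttgattTTCTTTGtttgaaaatg
mmc1: aaatgcaaaaTTCTTTGtttttttgtt

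Stress motifs were not more frequent than elsewhere. The Atf1 core TGACGT stood in 2 windows (4.35%, against 5.91%), and the full site TGACGTCA in none of 46 and in 14 of 5112. The heat shock element GAANNTTC, which reads the same on both strands, stood in 3 windows (6.52%, against 11.1%), those of dbl4, rec15 and tht2.

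The deleted genes and marker genes were read as a check of the labels. The xap5 transcript was at -3.11 and -2.11 on the log2 scale in the xap5 and double deletions and at 0.33 in the pht1 deletion, and the pht1 transcript was at -2.13 where pht1 alone was deleted, at -1.55 in the double deletion and at -0.03 in the xap5 deletion. The M mating genes did not follow the labels: 4 of 8 were called lower in the xap5 deletion, with mat1-Mc at -4.27, although this strain and wild type are both labelled h+, none was called in the pht1 deletion labelled h−, and all 8 were called higher in the double deletion. Of 5 P mating genes, 2 were called higher in the xap5 and 2 in the double deletion. Of 18 stress genes, 17, 14 and 17 were called higher in the xap5, pht1 and double deletions and 0, 0 and 1 lower (trx2 at -0.60 in the double deletion), with list medians of 2.26, 0.97 and 3.09. Of 11 genes listed for starvation, 5, 4 and 7 were called higher and 3, 2 and 3 lower. Over all sense entries 21.1%, 13.5% and 30.5% were called higher and 20.6%, 11.1% and 34.3% lower in the xap5, pht1 and double deletions. The part of mating type, stress and starvation in the values below was not tested.

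All values that follow are the authors' deposited log2 fold changes against wild type, where 1 is a doubling. A gene is said to have risen or fallen only where the deposited adjusted p was under 0.05. Neither levels nor values per library were used here, so the folds carry no standard error and the spread within a strain cannot be shown. The p-values rest on the spread between libraries but do not measure it, and that spread may in part be technical. In such bulk RNA, a change in a few cells and a change in every cell cannot be told apart.

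In the xap5 deletion, 14 of the 46 genes rose (30.4%) and 4 fell (8.7%). Over all 5747 sense entries 21.1% were called higher and 20.6% lower. The median fold of the set was 0.24, against -0.01 for all entries. In the pht1 deletion 4 genes rose and 4 fell (8.7% each), beside 13.5% higher and 11.1% lower over all entries, and the median was 0.06, against -0.02. In the double deletion 17 rose (37%) and 4 fell (8.7%), beside 30.5% and 34.3%, with a median of 0.33, against -0.05. The share of falling members thus lay below that of all entries in the xap5 and double deletions and near it in the pht1 deletion, and the share of rising members lay above that of all entries in the xap5 and double deletions and below it in the pht1 deletion. These differences were not tested. Among the 21 members that overlap no other entry the share of rising genes in the double deletion was 23.8%, below the 30.5% of all entries, so the direction there turned. Among the 12 sporulation and spore wall genes, 1, 1 and 3 rose in the xap5, pht1 and double deletions and 3 fell in each. Their share of falls lay above that of all entries in the xap5 and pht1 deletions, and their share of rises below it in all 3. Most changes were small: at least 2-fold higher were 4 genes in the xap5 deletion, 1 in the pht1 deletion and 8 with both deleted, and no member was called 2-fold lower in any strain.

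**Figure D2:**
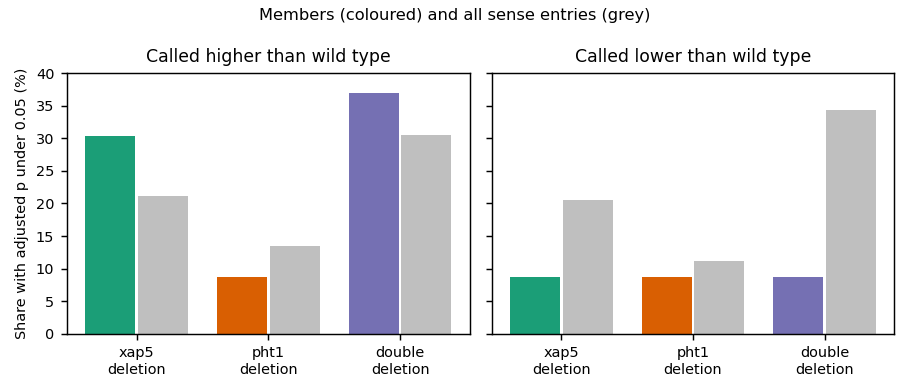
Share of genes with a deposited adjusted p under 0.05 (y axis, percent) in each deletion strain (x axis), higher than wild type on the left and lower on the right, for the 46 members (coloured bars) and all 5747 sense entries (grey bars). In the double deletion 8.7% of the members and 34.3% of all entries were lower.

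The shares over all entries apply as well to the counts for smaller groups of members that follow. They were 21.1%, 13.5% and 30.5% higher and 20.6%, 11.1% and 34.3% lower in the xap5, pht1 and double deletions. The groups are small, and no difference from these shares was tested. Among the 9 genes listed here under recombination and synapsis, 3 rose and 1 fell in the xap5 deletion, and 1 rose in the pht1 deletion. In the double deletion 3 rose, tht2 among them, and 1 fell. The highest was rec15 (SPBC1711.14, chromosome II, 2161487 to 2162200, plus strand), which encodes a partner of the break-forming protein Rec12. Its log2 fold was 1.06 in the xap5 deletion (adjusted p = 0.0362), 1.68 in the pht1 deletion (adjusted p = 0.000245) and 2.50 in the double deletion (adjusted p = 1.47e-10). It rose in each strain and stood highest of all 46 genes in the double deletion.

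The gene rec24, whose product also acts with Rec12, was at 0.65 in the xap5 deletion (adjusted p = 0.00741), 0.10 in the pht1 deletion and 0.79 with both deleted (adjusted p = 0.000440). The meiotic cohesin subunit gene rec11 was at 0.50 (adjusted p = 0.0170), -0.13 and 0.39 in the same order. Both thus rose with xap5 deleted alone, and rec11 missed the threshold in the double deletion (adjusted p = 0.0531). The gene tht2, listed as Mug22 in the authors' table, had 0.19 and 0.08 in the single deletions and 1.44 in the double deletion (adjusted p = 3.11e-10), where alone it was called. Its place on the recombination list was a choice made for this report, and a role in recombination or synapsis was not examined.

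The gene mcp7 encodes the fission yeast Mnd1, which works with Meu13 in strand exchange between homologues. It was at -0.29 in the xap5 deletion (adjusted p = 0.0449), -0.15 in the pht1 deletion and -0.42 with both deleted (adjusted p = 0.00138), the lowest fold among the recombination genes in each strain, though rec6 and rec11 lay close to it in the pht1 deletion. None of rec6, rec7, rec25 and rec27 was called in any strain. Their folds ran from -0.14, for rec6 in the double deletion, to 0.98, for rec7 in the pht1 deletion, and the latter had an adjusted p of 0.219. The proteins Rec25 and Rec27 belong to the linear elements that stand in for a synaptonemal complex in this yeast.

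Both genes of meiotic chromosome segregation rose in the xap5 deletion. The kinetochore protein gene moa1 (SPAC15E1.07c, chromosome I, 3728516 to 3729034, minus strand), needed for sister centromeres to face one pole in the first division, was at 1.96 in the xap5 deletion (adjusted p = 0.000968), 0.06 in the pht1 deletion and 0.35 with both deleted (adjusted p = 0.653). Its fold was the highest of the set in the xap5 deletion, and the difference of the double deletion fold from it was -1.61, without error or test. The gene kms1, whose product ties telomeres to the spindle pole body, was at 0.69 (adjusted p = 5.84e-05), 0.10 and 0.76 (adjusted p = 2.94e-06). Thus kms1 was called in both strains without xap5, and moa1 only in the single one; the difference between the strains was not tested.

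Of the 6 forespore membrane genes, 1 rose and 2 fell in the xap5 deletion, 2 fell in the pht1 deletion, and 1 rose and 1 fell in the double deletion. Among them, spo2, spo13 and spo15 encode parts of the meiotic plaque on the spindle pole body from which the membrane starts. The plaque gene spo2 (SPBC16C6.14, chromosome II, 4322024 to 4322622, minus strand) was at 0.67 in the xap5 deletion (adjusted p = 0.000461), -0.14 in the pht1 deletion and 1.40 with both deleted (adjusted p = 1.09e-15). The coiled-coil plaque gene spo15 was at -0.47 (adjusted p = 0.00383), -0.43 (adjusted p = 0.0167) and -0.65 (adjusted p = 1.94e-05). The fold of spo13 lay between -0.32 and 0.05 and was not called. Genes of one structure therefore had called folds of opposite sign in the xap5 and double deletions.

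Among the other forespore membrane genes, spo7 fell in the pht1 deletion. Its folds were 0.17, -0.52 (adjusted p = 0.000373) and 0.03 in the order xap5, pht1 and double deletion. The gene meu14, whose product rings the leading edge of the membrane, fell in the xap5 deletion, with -0.80 (adjusted p = 0.0278), 0.28 and -0.38. This was the lowest called fold of the set in that strain. The membrane gene spo3 lay between -0.11 and 0.08 and was not called.

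The 3 spore wall genes went different ways. The gene meu10 (SPCC1223.12c, chromosome III, 1866916 to 1870095, minus strand), for a cell-surface protein of ascospore wall assembly, was at 0.09 in the xap5 deletion, 0.86 in the pht1 deletion (adjusted p = 9.72e-05) and 1.60 in the double deletion (adjusted p = 1.03e-16). The gene gas4 (SPBC342.03, chromosome II, 4206247 to 4207715, plus strand), for the glucanosyltransferase that remodels spore wall glucan, was at -0.48 (adjusted p = 0.000446), -0.24 and -0.99 (adjusted p = 3.45e-14). Thus meu10 rose in both strains that lack pht1, and gas4 fell in both that lack xap5. The peptidase gene mde10 was at -0.09, -0.31 and -0.29 and passed only in the double deletion (adjusted p = 0.0430).

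Among the 14 genes named mug or meu with no narrower role list, 2 rose in the xap5 deletion, 1 rose and 2 fell in the pht1 deletion, and 2 rose in the double deletion. The gene mug109, described as a Rab GTPase binding protein, was at 0.71 in the xap5 deletion (adjusted p = 0.00205), 0.55 in the pht1 deletion (adjusted p = 0.0321) and 0.12 in the double deletion, where it was not called. The gene mug146, written Mug46 in the authors' description, was at 0.69 in the xap5 deletion (adjusted p = 0.0314), -0.02 and 0.12. Neither was called once both genes were missing.

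With both genes deleted, mug57 was at 0.77 (adjusted p = 1.69e-09) and mug97 at 0.98 (adjusted p = 0.0164), and they were not called in the single deletions (0.08 and 0.13 for mug57, 0.62 and 0.89 for mug97). The spore wall assembly gene mug65 and mug117 fell in the pht1 deletion, with folds of -0.55 (adjusted p = 0.0200) and -0.50 (adjusted p = 0.0357). Their folds in the other strains lay between 0.07 and 0.24. The other 8 of the 14, namely meu6, mug5, mug27, mug56, mug93, mug123, mug174 and mug184, were called in no strain, with folds from -0.73 for mug93 in the xap5 deletion to 1.04 for the kinase gene mug27 in the double deletion (adjusted p = 0.0997).

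Of the 12 remaining genes, 6 rose in the xap5 deletion (50%), 1 in the pht1 deletion (8.33%) and 9 with both deleted (75%), and none fell. Over all entries 21.1%, 13.5% and 30.5% were called higher. The gene min8 (SPAPB8E5.10, chromosome I, 4926538 to 4928138, plus strand), described as a conserved fungal protein with meiosis-specific splicing, was at 0.67 in the xap5 deletion (adjusted p = 0.00835), 0.42 in the pht1 deletion and 2.48 with both deleted (adjusted p = 1.51e-31). The mating gene ste7, described as a meiotic suppressor, was at 1.77 (adjusted p = 2.13e-08), 0.97 (adjusted p = 0.00828) and 2.01 (adjusted p = 5.77e-11). Like rec15, it rose in each strain.

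The autophagy gene atg101, which the authors' table lists as Mug66, was at 1.30 in the xap5 deletion (adjusted p = 1.45e-10), -0.43 in the pht1 deletion (adjusted p = 0.120) and 1.77 in the double deletion (adjusted p = 6.11e-20). Its double deletion fold stood 2.20 above its pht1 deletion fold, the widest such gap of the set. The gene mmc1, listed as Mug99, was at 0.71 (adjusted p = 2.06e-07), 0.13 and 0.87 (adjusted p = 4.60e-11). The PUF family gene mpf1, for a predicted RNA-binding protein, was at 0.37, 0.43 and 1.12 (adjusted p = 3.72e-05).

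Smaller rises in the same group came from rmr1 at 0.43 and 0.45 and SPBC1539.02 at 0.34 and 0.56, in the xap5 and double deletions. The ubiquitin ligase gene dbl4 at 0.56 and dbs2 at 0.52 rose in the double deletion only. The genes ank1, pit1 and dbl2 were called in no strain. For dbl2 the xap5 deletion fold of 0.40 had an adjusted p of 0.0851, the first value outside the threshold in that strain.

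**Figure D3:**
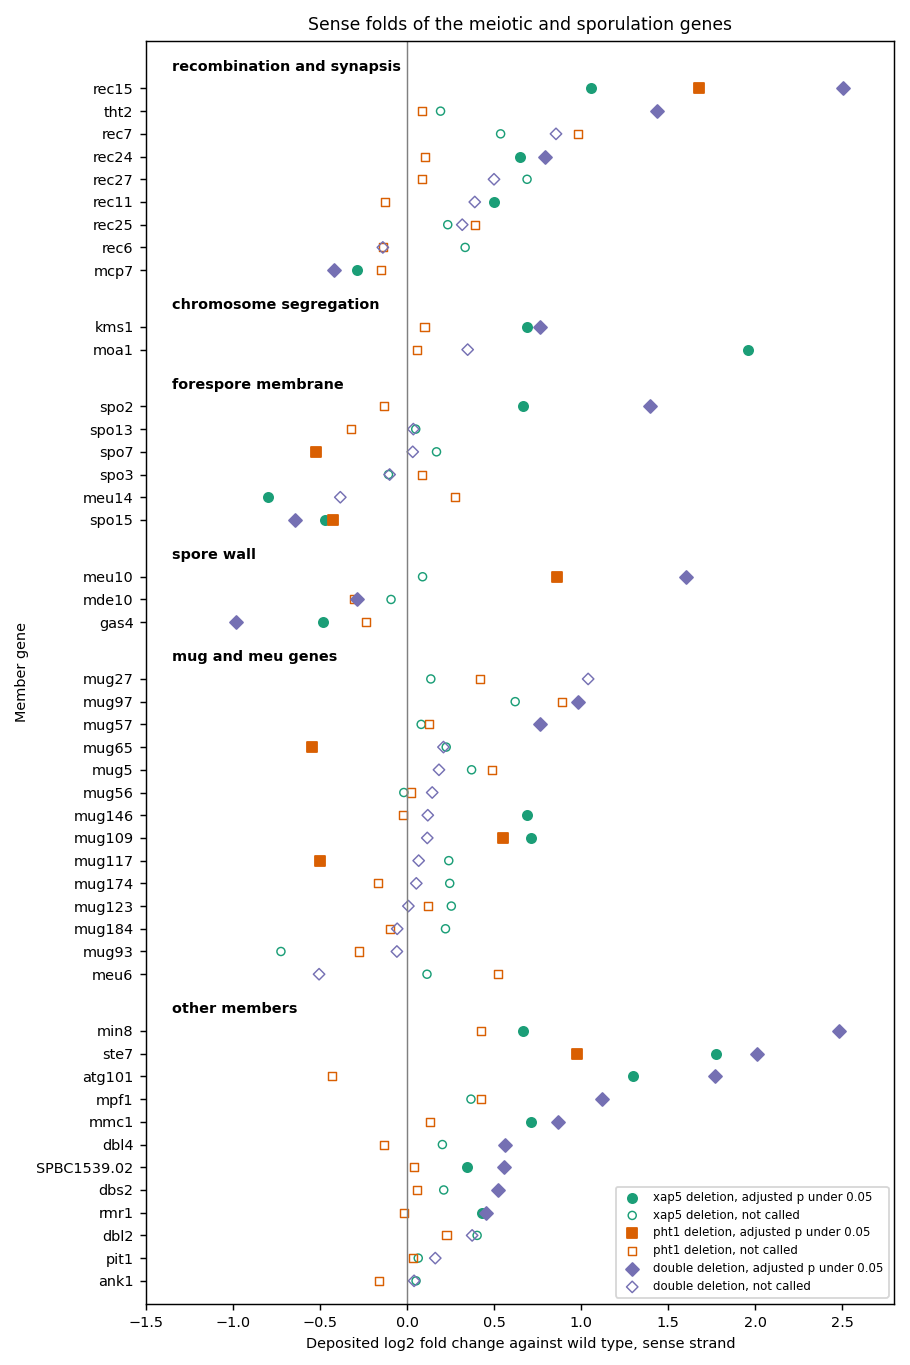
Deposited log2 fold change against wild type (x axis) for the 46 genes (y axis, grouped by role) in the xap5 (circles), pht1 (squares) and double deletion (diamonds), filled where the adjusted p was under 0.05. Filled symbols right of 1 number 4, 1 and 8 in the 3 strains, and no filled symbol lies at or below -1.

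Some larger folds had values close to the threshold, such as rec15 at 1.06 in the xap5 deletion (adjusted p = 0.0362). The members nearest to the threshold in each strain had small folds. Just inside it were mcp7 in the xap5 deletion, mug117 in the pht1 deletion (adjusted p = 0.0357) and mde10 in the double deletion. Just outside lay dbl2, then mde10 in the pht1 deletion (adjusted p = 0.0586) and rec11 in the double deletion.

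Presence of the Mei4 core did not go with more calls. Of the 20 genes with GTAAACA, 5, 1 and 5 rose and 2, 2 and 2 fell in the xap5, pht1 and double deletions. Of the 26 without it, 9, 3 and 12 rose and 2, 2 and 2 fell. The medians were 0.25, 0.08 and 0.28 with the core and 0.23, 0.04 and 0.38 without it. This difference was not tested.

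The double deletion was also set against each single one by the difference of deposited folds, which has no error. Against the xap5 deletion the median difference over the 46 genes was 0.05, with 4 genes at 1 or more and 1 at -1 or less. Those at 1 or more were min8, meu10, rec15 and tht2, and the lower one was moa1. Over all sense entries 5.95% lay at 1 or more and 1.91% at -1 or less. Against the pht1 deletion the median was 0.32, with 5 genes at 1 or more (atg101, min8, spo2, tht2 and ste7) and 1 at -1 or less (meu6 at -1.03). Over all entries these shares were 9.87% and 2.77%.

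Antisense rows covered 10 of the 46 members, beside 1039 of 5039 protein-coding sense entries (20.6%). The header of the antisense table says that it lists only transcripts that differ from wild type at p under 0.01, so these rows were chosen for a change. In the double deletion, 8 of the 10 were called higher and 2 lower, beside 76.3% and 10.3% of all 1039 rows at protein-coding genes. In the xap5 deletion 2 were called higher (22.1% of all rows), and in the pht1 deletion 1 (41.6% of all rows). None of the 10 was called lower in these 2 strains, as were 0.77% and 4.81% of all rows. The medians over the 10 were 0.90, 0.50 and 1.54 in the xap5, pht1 and double deletions, and 0.69, 0.93 and 1.53 over all such rows. Values at the members lay near the rest of the table in the xap5 and double deletions and below it in the pht1 deletion, which was not tested.

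The highest antisense value was at dbs2, described as a universal stress protein family member implicated in meiotic segregation (SPAC167.05, chromosome I, 1549926 to 1553301, minus strand). Antisense to it, the fold was 1.95 in the xap5 deletion (adjusted p = 0.00162), 0.57 in the pht1 deletion and 2.78 with both deleted (adjusted p = 1.44e-08). Its sense folds were 0.21, 0.05 and 0.52. At the kinase gene pit1 the antisense folds were 1.34, 0.47 and 2.17 (adjusted p = 0.00666), while its sense folds stayed between 0.03 and 0.16. In the double deletion the antisense rows of both rose, as did the sense RNA of dbs2 but with a smaller fold; the difference between strands was not tested.

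At rec7 the antisense folds were 1.49, 0.56 and 1.74, and at rec24 they were 0.60, 0.40 and 1.66; in both the double deletion alone was called. At mug27 they were 1.56 (adjusted p = 0.00796), 0.53 and 1.55. At dbl2, whose product acts at DNA breaks, they were 0.88, 1.53 (adjusted p = 0.00645) and 1.53, which makes dbl2 the member whose antisense row was called in the pht1 deletion. The rows at spo7 and mug97 reached 1.16 and 0.86 in the double deletion, and those at min8 and mpf1 fell, with folds of -0.75 (adjusted p = 0.00492) and -0.78 (adjusted p = 0.00544).

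Several of these rows lie where another annotated transcript runs on the opposite strand. In the RefSeq spans, which may differ from the annotation the authors counted on, 23 of the 46 members (50%) overlap an entry on the opposite strand, beside 2014 of 5039 protein-coding entries (40%). Among the members with an antisense row, 5 of 10 did, beside 37.5% of all such genes. RNA of such a partner lies antisense to the member where they overlap, so the rows are not independent of the partner's sense values. The libraries were strand-specific by the labels.

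Within dbs2 lies mug143 on the other strand, 812 bases long and covered in full, with sense folds of 1.98, 1.10 and 3.24 (adjusted p = 2.24e-34). At the end of rec24 lies the noncoding SPNCRNA.257, 517 bases, with 1.94 in the xap5 deletion (adjusted p = 0.0632) and 2.59 in the double deletion (adjusted p = 0.00176). All 1265 bases of mug97 lie inside mug57, itself a member on the opposite strand. The antisense folds of mug97 (0.11, 0.18 and 0.86) and the sense folds of mug57 (0.08, 0.13 and 0.77) are therefore largely readings of the same strand.

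The antisense rows of min8 and mpf1 fell in the double deletion, as did the partners across from them, while in the xap5 deletion the partners fell and these rows were not called. The gene SPAC1B3.01c covers 89.9% of min8 on the other strand and was at -0.64, -0.21 and -1.04 (adjusted p = 7.10e-16), beside antisense folds at min8 of -0.34, -0.15 and -0.75. The histone chaperone gene chz1 covers 93.8% of mpf1 and was at -0.38, 0.05 and -0.81 (adjusted p = 3.10e-10), beside -0.38, -0.12 and -0.78 antisense to mpf1. Both members rose in the double deletion while the transcripts across from them fell. Whether one bears on the other was not tested.

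**Figure D4:**
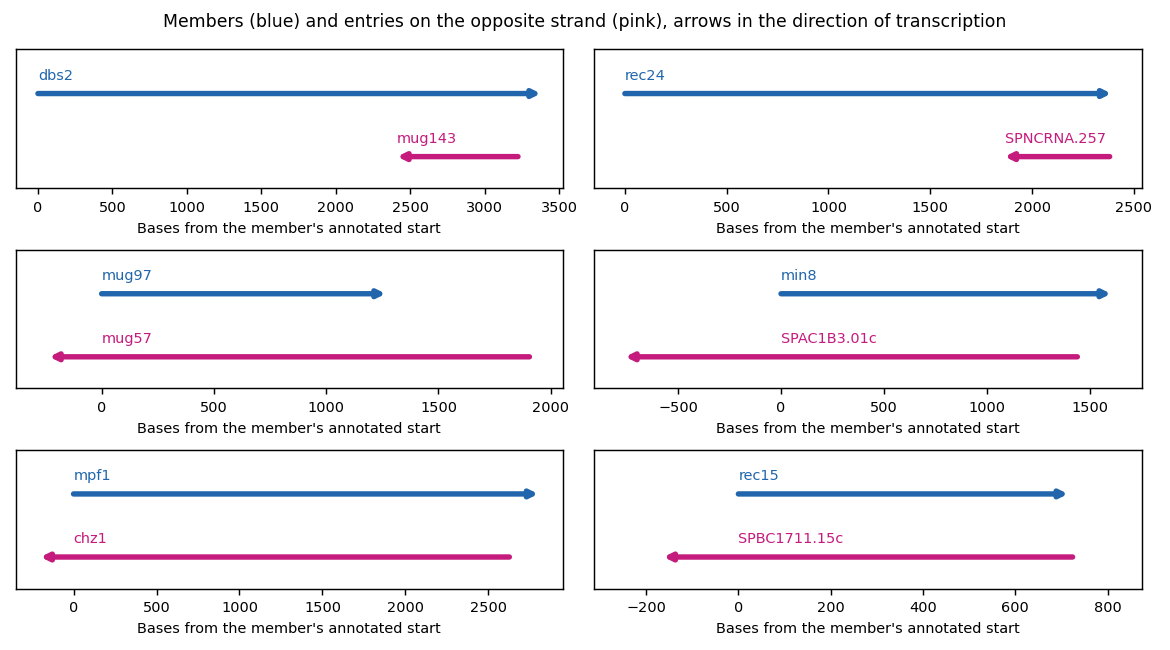
Annotated spans of 6 members (blue) and the entry on the opposite strand (pink), in bases from the annotated start of the member (x axis), drawn to scale with arrows in the direction of transcription. The partner covers all of mug97 and rec15, 89.9% of min8 and 93.8% of mpf1.

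**Figure D5:**
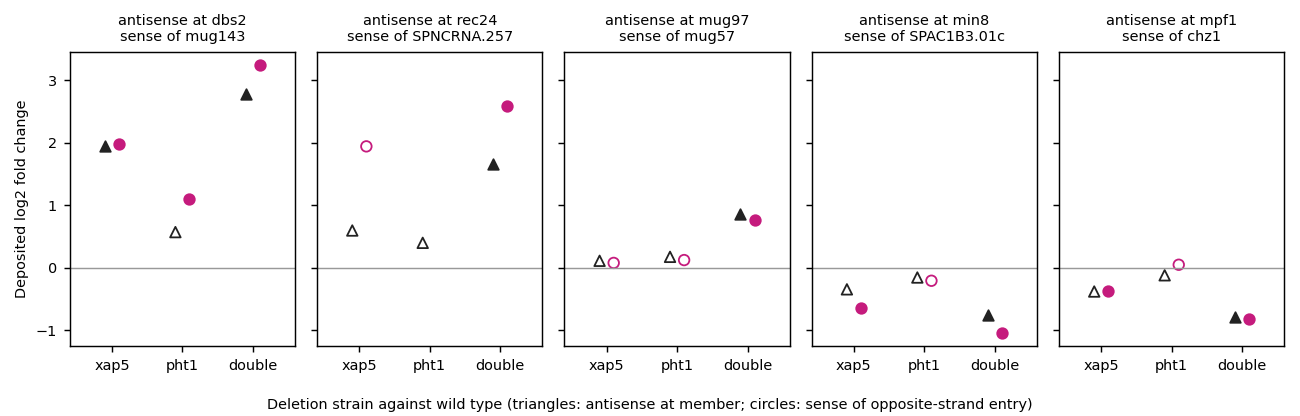
Deposited log2 fold change (y axis) of the antisense row of 5 members (triangles) and of the sense entry on the opposite strand (circles) in each deletion strain (x axis), filled where the adjusted p was under 0.05. In the double deletion both symbols are high at dbs2 and rec24 and both are below 0 at min8 and mpf1; the pht1 deletion value of SPNCRNA.257 is not drawn because its deposited fold stands for a group without reads.

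The gene rec15 has no antisense row, but it lies wholly inside SPBC1711.15c on the other strand. That gene had sense folds of 0.90 (adjusted p = 4.85e-06), 0.52 (adjusted p = 0.0235) and 0.02 in the xap5, pht1 and double deletions. Its own antisense row, which reads the strand of rec15, was at 0.85, 1.79 (adjusted p = 0.00522) and 1.88 (adjusted p = 0.00113), beside 1.06, 1.68 and 2.50 for rec15. In the single deletions both strands of the pair were called higher in sense, and in the double deletion only the rec15 strand was. Similarly, all of kms1 lies inside sei1, which was at 0.62 (adjusted p = 0.00313), 0.19 and 0.15. All of mug117 lies inside cca2, which was at -0.29, -0.33 (adjusted p = 0.0387) and -0.61, and all of meu6 inside clr4, the gene of the heterochromatin methyltransferase.

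The ubiquitin ligase gene dbl4 overlaps the noncoding SPNCRNA.529 on the opposite strand by 660 bases. That transcript was at 3.07 in the xap5 deletion (adjusted p = 2.99e-09), 1.06 in the pht1 deletion and 2.22 with both deleted (adjusted p = 0.000155), while dbl4 has no row in the antisense table. The same gene shares 12 bases with the trehalose synthase gene tps1 on its own strand. Members with no overlap on either strand numbered 21, of which 7, 2 and 5 rose in the xap5, pht1 and double deletions and 2, 1 and 2 fell.

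Apart from these overlaps the members resembled other genes in span and in the share with introns. Their median span was 2032 bases, beside 1790 for all protein-coding entries, and 24 of 46 (52.2%) had an intron, beside 48.6%. They lay on chromosome I in 23 cases, II in 12 and III in 11, beside 2296, 1841 and 902 of the protein-coding entries. Chromosome II thus held a smaller share of the members than of those entries and III a larger one, which was not tested. No member lay closer than 171928 bases to a chromosome end, and this distance was not computed for other genes.

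Other genes of the same pathways were read from lists by role, 90 genes that are not members. They rose in 26, 13 and 37 cases in the xap5, pht1 and double deletions (28.9%, 14.4% and 41.1%) and fell in 8, 5 and 22 (8.89%, 5.56% and 24.4%). Over all sense entries 21.1%, 13.5% and 30.5% were called higher and 20.6%, 11.1% and 34.3% lower. The share of rises in the pht1 deletion thus lay near that of all entries. The same shares apply to the counts per list that follow, and no difference from them was tested. Of 19 genes listed here as regulators of entry into meiosis, 5, 6 and 7 rose and 4, 1 and 7 fell. The gene ste11 was at 2.01 (adjusted p = 6.12e-16), 0.79 (adjusted p = 0.00600) and 2.48 (adjusted p = 5.21e-24). The gene mmi1, whose product marks meiotic transcripts for removal in dividing cells, fell in the xap5 and double deletions, with -0.77, -0.19 and -1.03.

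On the same list, the transcription factor genes atf21, rsv1 and rsv2 reached 4.61, 3.67 and 3.27 in the double deletion, higher than any of the 46 genes. The list was chosen for this report, and whether each of these genes acts at entry into meiosis was not examined. Of 24 other recombination genes, 10, 3 and 14 rose and 0, 3 and 4 fell. The linear element gene hop1 was at 0.91, -0.32 and 1.36, while rec12, the break-forming enzyme gene itself, was at -0.47, -0.86 and -0.79, called lower in the pht1 (adjusted p = 0.00433) and double deletions (adjusted p = 0.00358).

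Of 15 other spore wall genes, 1, 0 and 8 rose and none fell, with the spore surface gene isp3 at 1.33 and the alpha-glucan synthase gene mok13 at 1.10 in the double deletion. Of 13 other forespore membrane genes, 2, 2 and 3 rose and 3, 0 and 7 fell. Of 15 other segregation genes, 4, 2 and 3 rose and 1, 1 and 4 fell, and of 4 division control genes 4, 0 and 2 rose and none fell. The 10 genes left out by the rule rose in 4, 4 and 5 cases and fell in 0, 0 and 1. Of these, mei2, the RNA-binding master regulator, was at 1.26, 0.06 and 1.38, and mei3 was at 1.87, 1.86 and 1.54. The gene mei4 was at 0.34, 0.87 (adjusted p = 0.000224) and 0.41, called in the pht1 deletion only. The gene that fell was ssm4, at -0.45 in the double deletion (adjusted p = 0.00937). The folds of crs1 were -0.72, -0.67 and -0.65, not called in any strain.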

How the data were processed

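Per the labels' protocols, total RNA was depleted of ribosomal RNA and made into strand-specific, randomly primed libraries. They were read on 2 lanes with single reads of 100 bases, to a mean that the labels give as 11.8 M. Depth per library was not used here, so no counting interval is given. The submitters' processing notes name BWA 0.5.8c and edgeR, without the role of either. The authors deposited, for each deletion strain against wild type, each feature's log2 fold change, p-value and adjusted p-value, with no SE. Their header reads logFC, and base 2 is assumed by the usage of that software. Per the file headers the authors used a cutoff of 0.01, and the antisense table holds only transcripts that passed it. A header of the deposited tables names the annotation Ensembl EF2.12. Columns of p that exceed 1, in 55 sense and 6 antisense values as deposited, 1 of them a member's, were treated as a score and not interpreted as probabilities. The exception is the recomputed Benjamini-Hochberg values, for which the deposited p-values were ranked and those above 1 set to 1.

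Members and lists were chosen with earlier results of these data known. Members were called by the deposited adjusted p under 0.05, over the whole table, and no test was run here, because only the authors' comparisons were used and there were 0 columns of values per library. In each strain the 10 called members with the highest and the 6 with the lowest sense fold were to be named, with the 8 highest called antisense rows and up to 4 members per role by smallest adjusted p; others named were chosen after their values were seen. Members called in all strains were not counted as a result because the strains share wild type. The symbol hrs1 of the segregation list belongs to a histidine-tRNA ligase in the reference and was left out after the descriptions were read.

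Symbols, spans and sequences are from RefSeq, assembly ASM294v3, in which all 46 members and 5639 of 5747 sense entries have an identifier. Of 6121 deposited intergenic regions, 3316 equal an intron of this reference exactly, so its coordinates were used. Python 3.11.15, pandas 2.3.3, numpy 2.4.6 and scipy 1.17.1 were used. The adjustment of p-values, calls by threshold and direction, and the motif search were tested on simulated data. Counts of overlaps, introns and adjoining regions were not part of that test. Alternatives were thresholds of 0.01 and 0.1, a 2-fold minimum, Benjamini-Hochberg values recomputed over the table, folds centred on the table median, and subsets of the members.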

Additional observations from a re-analysis of the deposited data

How the results depend on the processing

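No paired analysis was possible because no values per library were used here; leaving out a replicate, a fit with the replicate as a block and other normalizations were not run for the same reason. The 12 counts of members (higher and lower, sense and antisense, in 3 strains) stayed within 1.5 times the reported ones at an adjusted p under 0.1 and with the adjustment recomputed over the table, which for the antisense table covers only its chosen rows. At an adjusted p under 0.01, sense counts moved for lower genes, to 2 in the xap5 and 1 in the pht1 deletion. With a 2-fold minimum, 4, 1 and 8 members were higher in the xap5, pht1 and double deletions and 0 lower in each, and 0 antisense rows were lower in the double deletion. Without members that overlap another entry, 21 were left, with 7, 2 and 5 higher (in the double deletion 23.8%, below the 30.5% of all entries) and 2, 1 and 2 lower, and antisense rows higher in 1 (xap5) and 5 (double) and lower in 0 (double). With the 12 sporulation and spore wall genes alone, 1, 1 and 3 were higher and 3 were lower in each strain. Over all entries 21.1%, 13.5% and 30.5% were called higher and 20.6%, 11.1% and 34.3% lower. In this subset the share of falls thus lay above that of all entries in the xap5 and pht1 deletions. Its share of rises lay below that of all entries in each strain. Antisense rows of the subset were higher in 0, 0 and 1 and lower in 0 in the double deletion. With the 34 meiosis genes alone, 1 was lower in each strain. Centring on the antisense table medians (0.71, 0.82 and 1.44) gave 6 antisense rows higher and 4 lower in the double deletion, beside 8 and 2 as reported. The deposited adjusted p was kept, and it belongs to the fold before centring. The rows of spo7 and mug97, at 1.16 and 0.86 and called higher, thus count as lower by the shifted sign alone. The sense table medians were -0.01, -0.02 and -0.05. The subsets hold fewer genes, so their counts are lower by construction; beyond that, the cause was not tested. Depth per library, and with it the precision of single folds, is unknown here.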

Other observations

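The deposited table of intergenic regions also holds introns, and 16 of its regions are introns of 8 members. None was called in the xap5 or pht1 deletion. Of all 3307 such introns, 1.39% and 0.756% were called higher in these strains and 0.514% and 0.0907% lower. With shares this low, the absence of calls does not set the introns of members apart. In the double deletion none was called higher and 1 lower, beside 9.68% of all such introns called higher and 1.45% lower. The one is the intron of mcp7, at -1.32 in the double deletion, while the gene itself was at -0.42. Introns of rec11, which has 8 in the reference, ran in the xap5 deletion from -1.87 to 1.03 over the 4 that the table holds, and none was called.

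Regions that adjoin a member, 6 upstream and 12 downstream, were called in the double deletion only. Upstream of spo2 the region of 206 bases was at 1.23 (adjusted p = 0.00105), beside 1.40 for spo2. Upstream of gas4 the region of 295 bases was at -0.75 (adjusted p = 0.0311), beside -0.99 for gas4. Upstream of mug146 a region of 1925 bases was at 1.29 (adjusted p = 0.0286), beside 0.12 for mug146. Over all regions that are not introns 21.2% were called higher and 1.82% lower in this strain. In the xap5 and pht1 deletions 4.14% and 2.71% of them were called higher and 0.856% and 0.321% lower. These regions carry no strand in the table, so the RNA of both neighbours cannot be told apart in them.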
